A study of Mus musculus with 12 samples.

Results

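Skin from mice with cutaneous lupus erythematosus (CLE), an autoimmune skin disease, was compared with skin from littermates that could not express the autoantigen. The comparison took the 4 libraries whose group label is CLE and the 4 whose group label is littermate, 8 of the 12 libraries in the series, and read all 561 gene rows of a NanoString mouse immunology panel. NanoString counts fluorescent barcodes on probes hybridised to each transcript, without amplification. Of the gene rows, 451 were tested, 98 lay below background and 12 are reference genes of the panel. The 6 positive and 8 negative control rows served as background.

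All 8 mice were female and received OT2 cells, CD4 T cells with a transgenic receptor, kept for 10 days in cultures that skew towards the T helper 2 (Th2) state. Lesions, or skin from like body sites in littermates, were frozen at first disease, about 3 to 4 weeks later. The CLE mice carried rtTA+K5TGO+TLR9ko/ko and came from the parental strain, in which the autoantigen is expressed and the Merkel cells are kept, the touch receptors of the epidermis. Littermate 1 was rtTA-K5TGO-TLR9ko/wt with Atoh1flox/flox and no Cre. Littermate 2 was rtTA-K5TGO+TLR9ko/ko with wild-type Atoh1 and no Cre. Littermate 3 was rtTA-K5TGO+TLR9ko/ko with Atoh1flox/wt and K14Cre, and its label gives a partial loss of Merkel cells. Littermate 4 was rtTA+K5TGO-TLR9ko/ko with Atoh1flox/flox and K14Cre, and its label gives a full loss. K14Cre is driven by the keratin 14 promoter, which is active in basal epidermis, and Atoh1 is the transcription factor that Merkel cells need. All mice share the T cell transfer, so the contrast holds autoantigen expression, strain background and the Atoh1 and Cre alleles together, and these cannot be told apart. The series description gives all groups as lacking TLR9, while littermate 1 is labelled with 1 wild-type copy. CLE mice 1 to 4 had skin disease scores of 2.5, 1, 1 and 3, and every littermate scored 0. Littermates 1 and 2 share a title number, as do littermates 3 and 4 and CLE mice 3 and 4, and no source used here says what the number marks.

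In lupus skin, T cells and innate cells attack the lower epidermis, and interferons made in the lesion switch on a set of genes in keratinocytes, endothelium and leukocytes. Among these genes are the chemokines CXCL9 and CXCL10, which draw T cells that carry CXCR3. Macrophages and neutrophils read antibody complexes through Fc receptors, and stressed keratinocytes and neutrophils release the alarmins S100A8 and S100A9. Interferon-responsive genes carry short DNA elements bound by STAT and IRF proteins.

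Values are in units of the deposited signal, which is a barcode count times 1 factor per lane. Recovered gene counts ran from 134994 to 452164 in CLE and from 99297 to 422137 in littermates. The lane factor was 5.56 in CLE 1 and 4.04 in littermate 2, and between 0.988 and 2.47 in the other 6 libraries. A gene was read as above background when it passed the lane's negative controls by 2 SD, a threshold of 21.6 to 106 units in CLE and 17.6 to 116 units in littermates. By exact two-sided permutation tests of 5 library measures (lane factor, negative controls, genes above background, counts and reference genes), p ran from 0.143 to 0.857, where 4 against 4 allows no p below 0.0286, and the smallest adjusted p was 0.714.

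Of the CLE libraries CLE 1, 2 and 4 stood well apart from the littermates, and CLE 3 lay close to them. In CLE 1, 273 of the 451 tested genes stood above all 4 littermates and 99 below. In CLE 2 these numbers were 242 and 97, and in CLE 4 they were 215 and 119. CLE 3 had 99 genes above and 106 below. Only 15 of its genes stood more than 2-fold above the littermate mean, against 182, 129 and 134 in CLE 1, 2 and 4. Set against the remaining 3 littermates, each littermate in turn lay outside their range in 186 to 304 genes, and CLE 3 lay outside the same 3 in 228 to 297. CLE 3 had a disease score of 1, as had CLE 2. CLE 3 was singled out after its values were seen, and values without it are given for the lists and genes that lead each group. Leaving it out for its values narrows the CLE spread, so counts and adjusted p-values without it are descriptions and not tests.

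**Figure D1:**
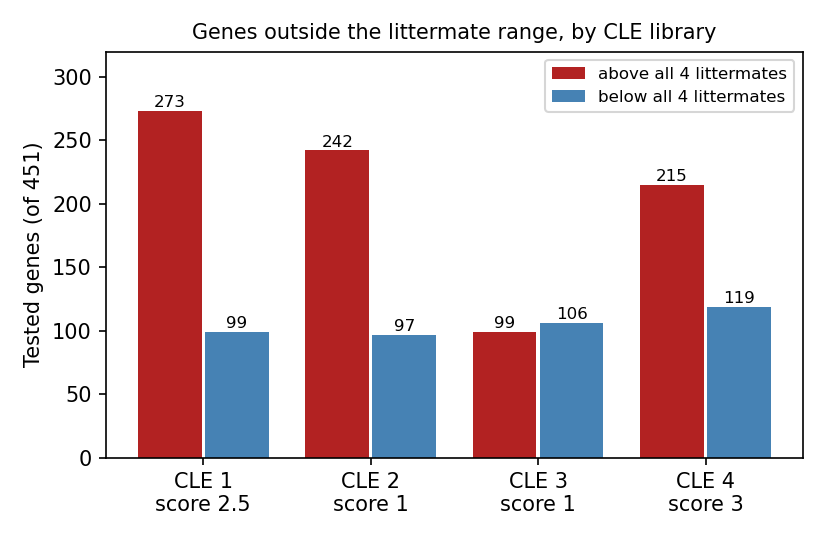
Number of tested genes, of 451, that stood above all 4 littermates (red bars) or below all 4 (blue bars) in each CLE library, with the skin disease score under each name. CLE 1, 2 and 4 had 273, 242 and 215 genes above the littermates, and CLE 3 had 99 above and 106 below.

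No gene passed an adjusted p of 0.05 in limma, the smallest being 0.111. An unadjusted p under 0.05 was reached by 120 genes (26.6% of those tested), 91 higher in CLE (20.2%) and 29 lower (6.43%). In 50 genes (11.1%) the groups did not overlap, with all CLE libraries above all littermates in 32 (7.1%) and below in 18 (3.99%). Without CLE 3, 138 genes passed (30.6%), 107 of them higher (23.7%) and 31 lower (6.87%). Of the 81 genes whose differences follow or close the text, 71 passed without CLE 3, 55 higher and 16 lower. The 10 that did not were Cd34, Defb1, Defb14, Irf4, Pdgfb, Pparg, Psmb5, Psmc2, Tgfb3 and Tlr9. Many of the 81 were named for a small p or for no overlap in these same values, so a high share was built in. On recovered counts edgeR with TMM factors passed 1 gene (0.222%), Cxcl10, and DESeq2 passed 94. The differences leaned upwards, with 327 positive (72.5%), 124 negative (27.5%) and a median of 0.35 on the log2 scale. Control probes multiplied by the same lane factors leaned the same way: positive controls had a median difference of 0.49, negative controls 0.32 and genes below background 0.51, while the 12 reference genes had 0.18. With median centring the 91 higher and 29 lower genes became 55 and 68, and with quantile normalization 53 and 76. The 32 higher and 18 lower genes without overlap became 21 and 34 with median centring, and 20 and 40 with quantile normalization. Which direction held more genes therefore depended on the scaling. Subtracting background moved 23 of the 81 differences by over 1.5 times, and raising low values to the background threshold moved 5, each of them below background in some library. Differences below are therefore read against the median of 0.35. Since no gene passed, all differences that follow are values without a call, given as log2 CLE minus littermate ± SE (n = 4 per group).

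**Figure D2:**
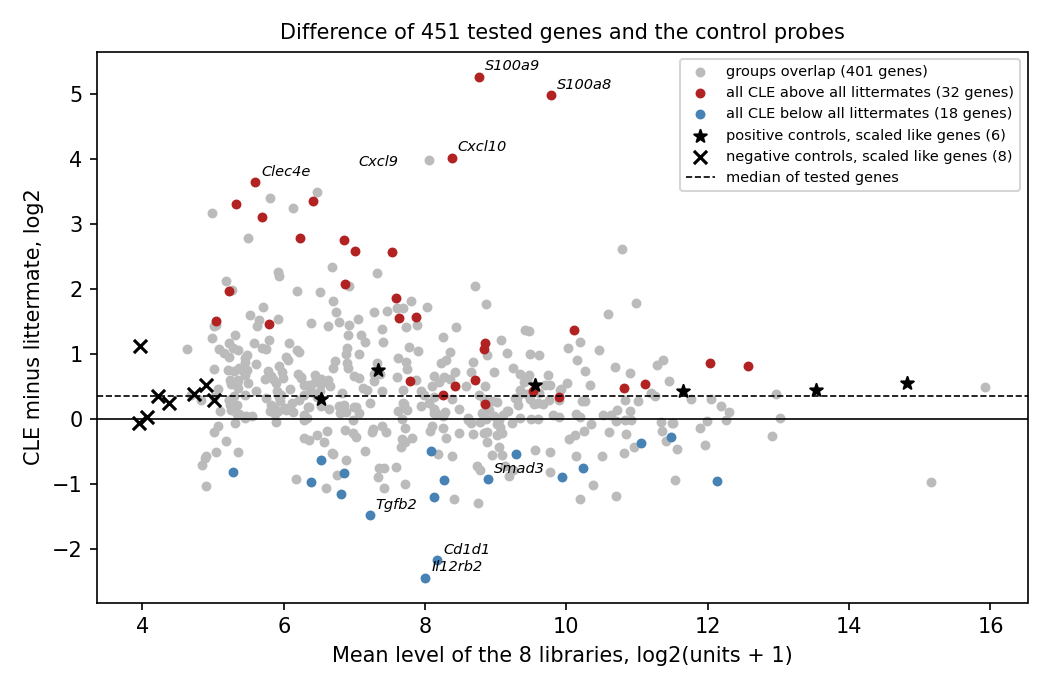
Each point is 1 of the 451 tested genes, with its mean level over the 8 libraries on the horizontal axis and its CLE minus littermate difference on the vertical axis, both log2. The 32 red and 18 blue genes had no overlap between groups, stars and crosses are control probes scaled like genes, and the dashed line is the median of 0.35.

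Interferon-induced genes stood higher in 3 of the 4 CLE libraries. All 12 tested members of the interferon-gamma-induced list had positive differences, 6 at an unadjusted p under 0.05, with a median of 1.14 against 0.35 over all tested genes, or 1.59 without CLE 3. Cxcl10, which recruits CXCR3-bearing T cells, read 2569, 2439, 131 and 3833 units in CLE 1 to 4 and 118, 97.0, 71.9 and 53.2 in littermates 1 to 4. The groups did not overlap, but CLE 3 stood just above littermate 1 while the other CLE libraries were at least an order of magnitude higher. The difference was 4.02 ± 0.87 (adjusted p = 0.111), and 5.13 without CLE 3. Cxcl9, its close relative, read 1585, 1548, 74.0 and 6848 units in CLE and 125, 44.5, 65.8 and 52.0 in littermates. Here CLE 3 fell inside the littermate range, and CLE 4 was the highest library. The difference was 3.98 ± 1.05 (adjusted p = 0.111), and 5.25 without CLE 3 (adjusted p = 0.000598 in limma). Adjusted p-values without CLE 3, here and below, describe the remaining libraries and do not test the comparison. In bulk skin, a larger share of cells that express a gene and more RNA per cell cannot be told apart.

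Cd274, the inhibitory ligand PD-L1, read 873, 597, 149 and 630.0 units in CLE and 215, 190.0, 204 and 180.3 in littermates and differed by 1.25 ± 0.45. CLE 1, 2 and 4 stood above every littermate, and CLE 3 was below all of them, so that the difference without it was 1.80 (adjusted p = 0.00149 in limma). The type I interferon list had 9 of 9 tested members positive, 3 at an unadjusted p under 0.05, with a median of 0.99, or 1.37 without CLE 3. Its member Stat2, a transcription factor of the type I interferon response, read 272, 906, 76.8 and 499 units in CLE and 128, 84.9, 95.2 and 89.6 in littermates, and Irf7, which amplifies type I interferon production, read 234, 385, 51.7 and 549 against 97.8, 76.8, 70.9 and 66.6. CLE 2 had the most Stat2 and CLE 4 the most Irf7, and CLE 3 was below all littermates for both. The differences were 1.66 ± 0.66 for Stat2, 1.53 ± 0.64 for Irf7 and 0.99 ± 0.42 for Ifi35, an interferon-induced leucine zipper protein. Without CLE 3, Stat2 differed by 2.33 and Irf7 by 2.23 (adjusted p = 0.00986 and 0.00793 in limma). The genes for the interferons themselves gave no such values: Ifng read 61.2, 29.6, 9.78 and 20.9 units in CLE and 10.9, 44.5, 9.11 and 15.7 in littermates, and Ifnb1 read 11.1, 9.88, 18.2 and 12.8 and 8.89, 28.3, 13.2 and 16.9. Neither passed the background threshold in any of the 8 libraries, and both were picked for description after their values were seen.

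Promoters of genes without overlap were searched because this set holds several interferon-induced members. RefSeq (GRCm38.p6) promoters, the 250 bases before each gene's start, were matched for 336 of the 451 tested genes, 22 of the 32 higher and 14 of the 18 lower genes without overlap. The interferon-stimulated response element was searched as GAAANNGAAA on both strands. It was present in 978 of 32851 mouse promoters (2.98%), 22 of 336 tested genes (6.55%), 3 of the 22 higher genes (13.6%) and none of the 14 lower genes. The 3 were Cxcl10, Irgm1 and Fcgr4, whose promoters are printed with these matches in capitals, together with the match of Cxcl10 to the NF-kB element GGGANNTTCC. The Cxcl10 promoter lies at chr5:92348890-92349139 on the minus strand, with the response element from 213 to 204 bases before the start and the NF-kB match from 159 to 150.
Cxcl10: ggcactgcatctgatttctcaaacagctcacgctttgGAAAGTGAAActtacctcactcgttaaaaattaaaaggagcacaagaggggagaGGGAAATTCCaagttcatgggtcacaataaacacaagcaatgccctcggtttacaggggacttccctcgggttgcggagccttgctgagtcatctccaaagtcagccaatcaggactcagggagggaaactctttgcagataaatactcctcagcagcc
The Irgm1 promoter lies at chr11:48871421-48871670 on the minus strand, where 2 overlapping matches run from 30 to 15 bases before the start.
Irgm1: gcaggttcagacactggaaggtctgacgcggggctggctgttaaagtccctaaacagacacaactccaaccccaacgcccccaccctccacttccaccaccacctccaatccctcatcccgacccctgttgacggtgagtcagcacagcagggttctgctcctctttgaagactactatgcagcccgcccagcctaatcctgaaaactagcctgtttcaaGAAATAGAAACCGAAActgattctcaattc
The Fcgr4 promoter lies at chr1:171018676-171018925 on the plus strand, with the match from 73 to 64 bases before the start.
Fcgr4: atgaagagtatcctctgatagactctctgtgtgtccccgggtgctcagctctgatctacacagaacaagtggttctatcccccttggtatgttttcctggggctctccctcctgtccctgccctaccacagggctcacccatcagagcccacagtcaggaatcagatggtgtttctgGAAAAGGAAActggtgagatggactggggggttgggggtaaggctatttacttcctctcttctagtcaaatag
Of the other motifs searched on both strands, GGGANNTTCC was in 1.21% of all promoters, 15 of 336 tested genes, 1 of 22 higher genes and none of 14 lower genes. The STAT element TTCNNNGAA was in 7.02% of all promoters, 36 tested genes, 1 higher gene (Socs3) and 1 lower gene (Il12rb2). The C/EBP element TTGCNNAA was in 9.56% of all promoters, 38 tested genes, 4 higher genes (Clec4e, Plaur, Ptgs2 and S100a9) and 2 lower genes (Pparg and Xbp1). A match of letters is a description of the window, not evidence of binding.

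Irgm1, an interferon-induced GTPase that acts against intracellular pathogens, read 1468, 1832, 947 and 3873 units in CLE and 912, 695, 642 and 549 in littermates, with a difference of 1.36 ± 0.47. Every CLE library stood above every littermate, CLE 3 only by a small margin over littermate 1. Its sequence match led to its being named.

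**Figure D3:**
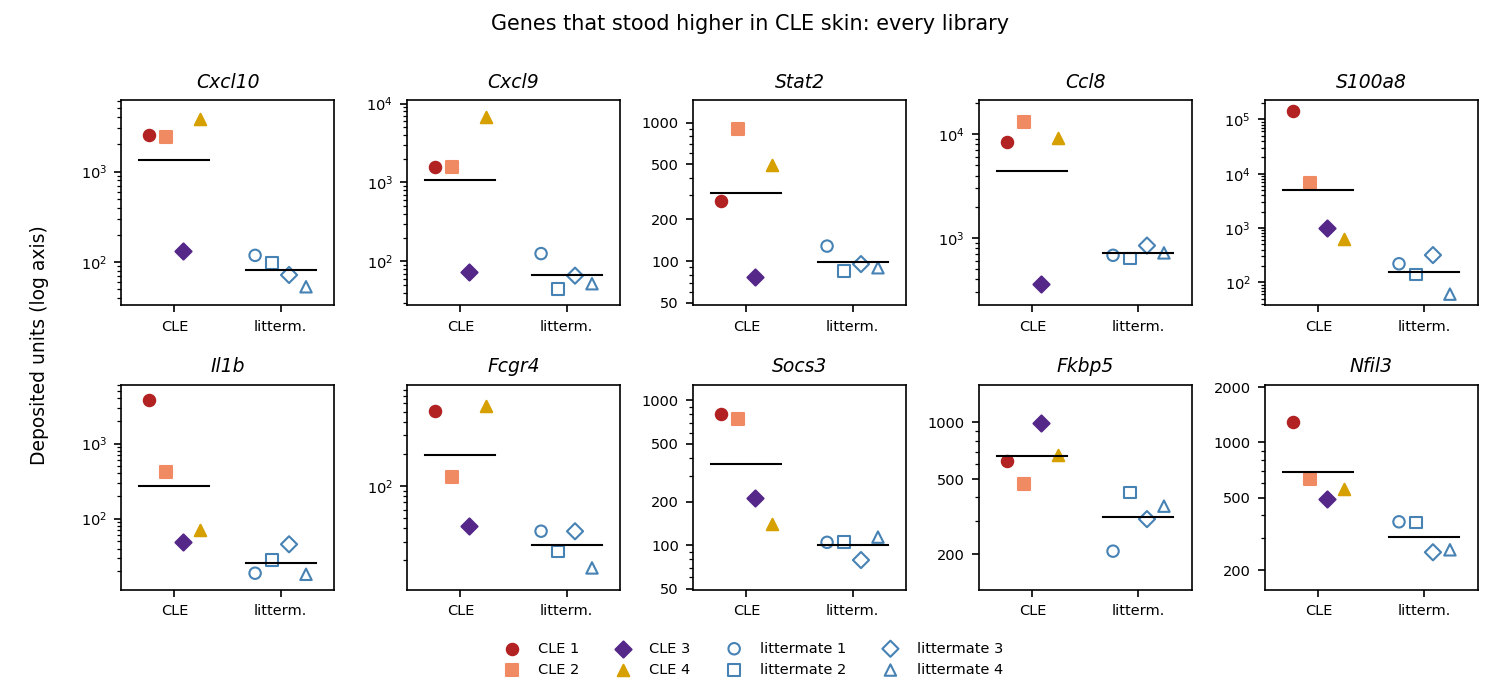
Values of 10 genes in every library, in deposited units on log axes, with CLE libraries as filled symbols, littermates as open symbols and the mean of the log2 values as a line. For Cxcl10, Cxcl9, Stat2, Ccl8 and Fcgr4 the low CLE symbol is CLE 3, whereas for Fkbp5 CLE 3 is the highest library at 990.3 units.

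Chemokine ligands stood higher as a group in CLE skin. Of 24 tested ligands 23 had positive differences, 9 at an unadjusted p under 0.05, and the median was 1.27, or 1.52 without CLE 3. Ccl8, which attracts monocytes and some T cells, was among the 10 most abundant genes of the CLE group, at 8413, 13228, 360.4 and 9099 units against 681, 631, 846 and 719 in littermates. CLE 1, 2 and 4 carried about an order of magnitude more than any littermate, and CLE 3 carried less than all of them, so that the difference was 2.61 ± 0.97, or 3.81 without CLE 3. The monocyte attractants Ccl7 and Ccl12 read 350.3, 409.8, 43.3 and 444 and 189, 71.6, 34.9 and 159 units in CLE 1 to 4. Their littermates read 54.3, 48.5, 43.5 and 35.1 for Ccl7 and 32.6, 36.4, 25.3 and 19.4 for Ccl12, and the differences were 2.33 ± 0.74 and 1.72 ± 0.58. CLE 3 again lay in the littermate range, and CLE 1, 2 and 4 above it.

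Ccl3 and Ccl4, chemokines made by activated macrophages and lymphocytes, were led by CLE 1. Ccl3 read 3025, 299, 71.2 and 117 units in CLE and 20.7, 72.8, 17.2 and 15.7 in littermates, a difference of 3.49 ± 1.19. It was the only gene above background in all 4 CLE libraries and in no littermate, and its groups still overlapped because littermate 2, with its high background, read more than CLE 3. Ccl4 read 1596, 93.8, 22.4 and 70.8 against 7.90, 20.2, 8.10 and 14.5 units, above background in 3 of 4 CLE libraries and 0 of 4 littermate libraries. For Ccl4 all CLE libraries stood above all littermates, and the difference was 3.30 ± 1.19. It was 2.08 without CLE 1 and 5.14 after background subtraction.

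The 2 largest differences were those of the alarmins S100a9 and S100a8, and neutrophil genes were highest in CLE 1 and 2. Of 6 tested members all were positive, 5 at an unadjusted p under 0.05, with a median of 2.68, or 1.76 without CLE 1. The summed signal of the list was 237795, 11625, 1518 and 1484 units in CLE 1 to 4 and 223 to 621 units in littermates. S100a8 and S100a9 form calprotectin, a calcium-binding alarmin of neutrophils and inflamed keratinocytes. S100a8 read 139994, 6725, 1011 and 615 units in CLE and 219, 137, 317 and 60.5 in littermates. S100a9 read 93820.3, 3945, 331 and 422 against 107, 64.7, 116 and 27.8. No CLE library overlapped the littermates, and CLE 1 exceeded CLE 4, the mouse with the highest score, by more than 2 orders of magnitude. The differences were 4.98 ± 1.37 and 5.26 ± 1.47 (adjusted p = 0.111 for both).

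Cxcr2, the receptor that brings neutrophils to CXCL1 and its relatives, read 1540.2, 565, 19.6 and 60.3 units in CLE and 16.8, 48.5, 13.2 and 6.05 in littermates. Csf3r, the receptor for the growth factor of neutrophils, read 801, 156, 30.7 and 109 against 24.7, 72.8, 40.5 and 23.0. In both of these CLE 1 was highest and CLE 2 second, and CLE 3 lay within the littermate range. Cxcr2 was above background in 3 of 4 CLE libraries and 0 of 4 littermate libraries, and its difference of 3.40 ± 1.14 was 2.61 with low values raised to the background threshold and 5.44 after background subtraction. Csf3r differed by 1.96 ± 0.84, or 1.14 without CLE 1. Clec4e, a C-type lectin (Mincle) that senses mycobacterial and damage-derived lipids, read 2530.0, 153, 25.1 and 82.4 units in CLE and 10.9, 16.2, 12.2 and 12.1 in littermates, and differed by 3.64 ± 1.14 without overlap. It was above background in 3 of 4 CLE libraries and 0 of 4 littermate libraries, and the difference was 2.34 without CLE 1 and 5.80 after background subtraction.

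Genes of interleukin-1 and prostaglandin signalling were also highest in CLE 1 and 2. In the interleukin-1 family list 15 of 19 tested genes were positive (72.5% of all tested genes were), 6 at an unadjusted p under 0.05. The list median was 0.40, close to the 0.35 of all genes, and -0.07 with median centring. Il1b, the cytokine cleaved by the inflammasome, read 3798, 415, 48.9 and 69.6 units in CLE and 18.8, 28.3, 45.6 and 18.1 in littermates, a difference of 3.35 ± 1.17, or 2.08 without CLE 1. Il1a, the epithelial alarm form, read 745, 504, 204 and 171 against 123, 117, 105 and 111 units and differed by 1.56 ± 0.46. Neither gene overlapped between groups, and CLE 1 and 2 were the higher libraries for both. Il18, a keratinocyte cytokine that drives interferon-gamma release, read 2302, 3348, 782 and 886 against 622, 615, 724 and 919 units, with CLE 3 and 4 inside the littermate range and a difference of 1.10 ± 0.41, or 0.72 without CLE 2. Ptgs2, the inducible prostaglandin synthase, read 1868, 405, 128 and 81.2 units in CLE and 37.5, 32.4, 77.0 and 38.7 in littermates and differed by 2.75 ± 0.95. Plaur, the urokinase receptor of migrating leukocytes and keratinocytes, read 3192, 289, 74.0 and 142 against 41.5, 60.6, 55.7 and 50.8 and differed by 2.58 ± 0.92, or 1.47 without CLE 1. For Ptgs2 and Plaur no CLE library fell among the littermates, although CLE 3 and 4 were within a few fold of them. Il19, a cytokine of the interleukin-10 family that keratinocytes and monocytes make, read 1179, 200.0, 29.3 and 26.7 against 8.89, 28.3, 17.2 and 15.7 units, with CLE 3 and 4 near the littermates. It was above background in 3 of 4 CLE libraries and 0 of 4 littermate libraries and differed by 2.78 ± 0.97, which was 1.68 without CLE 1, 1.85 with low values raised to the threshold and 4.80 after background subtraction.

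Fc receptor and macrophage genes were shared by CLE 1, 2 and 4. Of 12 tested Fc receptor genes and adaptors 11 were positive, 6 at an unadjusted p under 0.05, with a median of 1.42, or 2.00 without CLE 3. The macrophage and monocyte list had 19 of 21 positive, 9 at an unadjusted p under 0.05, and a median of 0.98, or 1.34 without CLE 3. Fcgr4, an activating receptor for IgG on monocytes and neutrophils, read 506, 121, 41.9 and 559 units in CLE and 37.5, 24.3, 37.5 and 16.9 in littermates. It did not overlap between groups, with CLE 1 and 4 highest and CLE 3 just above the littermates, and differed by 2.78 ± 0.79. Tyrobp, the signalling adaptor DAP12 of myeloid and NK cells, read 8313, 8312, 912 and 3116 against 1159, 719.7, 1539 and 1105 units. CLE 3 lay inside the littermate range for Tyrobp, and the difference was 1.78 ± 0.68. Lilrb4a, an inhibitory receptor of myeloid cells, differed by 2.05 ± 0.77, or 1.29 without CLE 1, and Trem2, a lipid receptor of macrophages, by 1.52 ± 0.54.

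Cd14, the co-receptor for lipopolysaccharide, read 6533, 412, 109 and 139 units in CLE and 68.1, 84.9, 87.1 and 64.2 in littermates, a difference of 2.56 ± 1.11, or 1.28 without CLE 1. Csf2rb, the shared chain of the receptors for GM-CSF, interleukin-3 and interleukin-5, read 912, 629.5, 168 and 276 against 135, 133, 152 and 123 units and differed by 1.57 ± 0.49. Bst1, an NAD-processing surface enzyme (CD157) of myeloid and stromal cells, read 651, 151, 126 and 262 against 47.4, 72.8, 53.7 and 53.2 and differed by 2.07 ± 0.59. All 3 stood above every littermate in every CLE library. Fcer1a, the ligand-binding chain of the IgE receptor, read 239, 168, 34.9 and 215 units in CLE and 15.8, 24.3, 28.4 and 46.0 in littermates, with a difference of 2.27 ± 0.65. CLE 1, 2 and 4 were several-fold above the littermates and CLE 3 was between littermates 3 and 4.

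Lymphocyte genes lay closer to the median of all genes. In the T cell receptor list 13 of 20 tested members were positive and 7 negative, with a median of 0.43 (-0.05 with median centring). At an unadjusted p under 0.05, 2 were higher and 1 lower. Over all tested genes 72.5% were positive, and 20.2% were higher and 6.43% lower at that p. Ptprc, the pan-leukocyte marker CD45, read 1852, 936, 318 and 823 units in CLE and 399, 259, 455 and 335 in littermates and differed by 1.21 ± 0.49, with CLE 3 in the littermate range and the others above it. Cd7, a T and NK cell surface protein, read 44.5, 74.1, 120.1 and 48.7 against 136, 174, 184 and 85.9 units and differed by -1.06 ± 0.39, with CLE 3 inside the littermate range. CLE 1 was below its background threshold of 106 units for Cd7. The cytotoxic and NK cell list had 12 of 12 tested genes positive, 3 at an unadjusted p under 0.05 (20.2% of all tested genes were higher at that p), and a median of 0.67 that was 0.19 with median centring and 0.06 with quantile normalization. Gzma, a granule protease of killer cells, read 322, 193, 57.3 and 285 units in CLE and 42.5, 97.0, 29.4 and 35.1 in littermates and differed by 1.95 ± 0.57. CLE 3 was the one CLE library inside the littermate range for Gzma. Gzmb read 72.3, 86.4, 16.8 and 75.4 against 26.7, 32.4, 11.1 and 13.3 units and differed by 1.44 ± 0.51, above background in 2 of 4 CLE libraries and 1 of 4 littermate libraries.

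The transferred cells had been grown as Th2 cells, and genes of that state held values in both directions. Of 19 Th2-list genes on the panel 13 were tested, 8 positive and 5 negative, with a median of 0.18, and at an unadjusted p under 0.05 none was higher and 2 were lower, Gata3 and Irf4 (6.43% of all tested genes were lower). Il4 read 66.7, 49.4, 12.6 and 15.1 units in CLE and 13.8, 12.1, 9.11 and 12.1 in littermates, and Il5 read 16.7, 19.8, 9.78 and 10.4 and 10.9, 12.1, 7.09 and 13.3, and none of these values passed background. Both cytokines were picked for description after their values were seen. Gata3, the transcription factor of Th2 cells that keratinocytes and hair follicles also express, was abundant in all skin, at 1462, 5207, 6059 and 2366 units in CLE and 6075, 6591, 6228 and 6061 in littermates. All CLE values lay below all littermates, though CLE 3 nearly reached the lowest littermate, and the difference was -0.95 ± 0.38, or -0.57 without CLE 1. Irf4, a factor of activated lymphocytes and dendritic cells, read 111, 175, 92.2 and 104 against 208, 271, 231 and 174 units and differed by -0.89 ± 0.30. CLE 2 overlapped littermate 4, and CLE 3 was the lowest of the 8 libraries.

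Il12rb2, the signalling chain of the interleukin-12 receptor, had the most negative difference of all tested genes. It read 22.2, 219.7, 342 and 82.4 units in CLE and 545, 675, 685 and 495 in littermates, -2.44 ± 0.71 with an adjusted p of 0.111. No CLE library reached the littermates, CLE 1 was below background, and CLE 3 came nearest to them. Il27, a cytokine of myeloid cells that acts on early Th1 cells, read 128, 42.0, 34.9 and 47.6 against 14.8, 32.4, 20.2 and 12.1 units and differed by 1.51 ± 0.43 without overlap. CLE 2 and littermates 1, 2 and 4 were below background for Il27, and its difference ran from 0.75 to 3.28 over the alternatives. The Th1 list held both directions, with 6 of 10 positive (72.5% of all tested genes were) and a median of 0.53, or 0.06 with median centring. Il2rb, the shared chain of the interleukin-2 and interleukin-15 receptors, differed by 0.94 ± 0.35.

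Antigen presentation split the CLE mice. The MHC class II list had 7 of 11 positive, a median of 0.08 and 1 member at an unadjusted p under 0.05. Its median departure from the littermate mean was -0.42 in CLE 1, 0.17 in CLE 2, -0.57 in CLE 3 and 1.39 in CLE 4. H2-Ab1, a class II chain, read 2891, 8028, 2323 and 14154 units in CLE and 5592, 5091, 6075 and 3249.6 in littermates. CLE 4 and 2 stood above all littermates and CLE 1 and 3 below all of them, so the group means nearly met. Ctss, the protease that trims the class II chaperone, was the exception, at 1095, 770.2, 208 and 3053 against 211, 206, 414 and 214 units and a difference of 1.78 ± 0.76, or 1.16 without CLE 4. For class I presentation 8 of 12 genes were positive, where 72.5% of all tested genes were. The median was 0.44, or -0.03 with median centring and -0.27 with quantile normalization. Among the positive genes were Psmb10, a subunit of the immunoproteasome, at 1.11 ± 0.43 and the peptide-loading chaperone Tapbp at 0.74 ± 0.32. The constitutive proteasome subunit Psmb7, which Psmb10 replaces, read 1073, 1560.2, 1922 and 1556 units in CLE and 2418, 1896, 2025 and 2312 in littermates and differed by -0.52 ± 0.20, with CLE 3 just above littermate 2.

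A small set of genes stood higher in all 4 CLE mice, CLE 3 included. Fkbp5, a chaperone that glucocorticoids induce, read 623, 472, 990.3 and 673 units in CLE and 207, 425, 307 and 359 in littermates, with CLE 3 as the highest of all 8 libraries. It did not overlap, and the difference was 1.08 ± 0.28 (adjusted p = 0.111). Nfil3, a transcription factor of circadian and lymphoid programmes, read 1290.0, 632, 490.2 and 556 against 368, 364, 251 and 259 units and differed by 1.17 ± 0.31. Socs3, the feedback inhibitor of STAT3 signalling, read 801, 743, 212 and 139 units in CLE and 105, 105, 79.0 and 114 in littermates and differed by 1.86 ± 0.52. For Nfil3 and Socs3 all CLE libraries were above all littermates. Cebpb, a factor of myeloid cells and differentiating keratinocytes, read 8879.9, 7201, 4038 and 3816 against 3045, 3372, 2913 and 3086 units and differed by 0.85 ± 0.29. Mif, an abundant inflammatory cytokine, read 10537, 11191, 5707 and 6221 units in CLE and 3819, 4969, 4519 and 5151 in littermates and differed by 0.81 ± 0.25. No CLE value of Cebpb or Mif fell among the littermates. Vcam1, which endothelium and stroma display to bind leukocytes, read 161, 69.1, 53.1 and 114 against 31.6, 32.4, 33.4 and 31.5 units, again without overlap, and differed by 1.47 ± 0.44.

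Members of the TGF-beta pathway were among the genes that stood lower. In the TGF-beta list 4 of 9 members were positive and 5 negative, and 3 were lower at an unadjusted p under 0.05 (6.43% of all tested genes were). The list median lay near 0, below the 0.35 of all tested genes. It was -0.47 with median centring and -0.38 with quantile normalization. Smad3, which carries TGF-beta and activin signals to the nucleus, read 228, 375, 415 and 391 units in CLE and 693, 598, 624 and 704 in littermates. The difference was -0.93 ± 0.23 (adjusted p = 0.111), every CLE library was below every littermate, and CLE 3 was the nearest. Tgfb2 read 77.8, 42.0, 156 and 116 against 286, 263, 253 and 195 units and differed by -1.48 ± 0.38, above background in 2 of 4 CLE libraries and 4 of 4 littermate libraries. Tgfb3 read 167, 61.7, 176 and 261 against 332, 315, 229 and 313 and differed by -0.99 ± 0.37, or -0.58 without CLE 2. Tgfb2 did not overlap, and Tgfb3 overlapped through CLE 4 and littermate 3.

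Cd1d1 and Mr1, which present lipids and vitamin metabolites to unconventional T cells, were both lower without overlap. Cd1d1 read 217, 42.0, 117 and 304 units in CLE and 489.8, 400.3, 857 and 808 in littermates, a difference of -2.17 ± 0.56. CLE 2 was below its background threshold of 53.2 units for Cd1d1. Mr1 read 145, 207, 295 and 273 against 414, 400.3, 448 and 442 units and differed by -0.94 ± 0.29. For Cd1d1 the low value of CLE 3 is clear of the littermates, unlike for most genes. Stat5b, which signals for interleukin-2 family cytokines and growth hormone, read 623, 679, 974 and 634 units in CLE and 1446, 1160.5, 1147 and 1623 in littermates and differed by -0.89 ± 0.25. Ifngr2, the signalling chain of the interferon-gamma receptor, read 361, 341, 612 and 469 against 858, 784, 604 and 657 and differed by -0.73 ± 0.25, with CLE 3 above littermate 3. Ackr2, a scavenger of inflammatory chemokines, read 66.7, 83.9, 105 and 91.7 against 136, 190.0, 153 and 137 units and differed by -0.83 ± 0.27 without overlap. CLE 1 was below its background threshold of 106 units for Ackr2, and the difference ran from -1.79 to -0.60 over the alternatives. Ube2l3, a ubiquitin-conjugating enzyme, differed by -0.75 ± 0.25 and Pdgfb, a growth factor for pericytes, by -0.53 ± 0.19, both without overlap.

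Other genes that stood lower included some known from vessels, stroma, fat and hair follicles. Of 10 tested endothelial and platelet genes 4 were positive and 6 negative, with a median of -0.23. Over the alternatives that median ran from -0.75 to 0.06, with -0.70 under median centring. At an unadjusted p under 0.05 2 of them were higher, Vcam1 and the platelet integrin chain Itga2b at 1.22 ± 0.43, and 1 was lower, Cd34. Over all tested genes 20.2% were higher and 6.43% lower at that p, so these counts lie near the shares of the panel. Cd34, on vessels and hair follicle stem cells, read 773, 454, 1235 and 1766 units in CLE and 1813, 2325, 1868 and 1594 in littermates and differed by -1.01 ± 0.42. Cdh5, the adhesion molecule of endothelial junctions, read 106, 46.9, 251 and 154 against 223, 230.5, 284 and 252 units and differed by -1.05 ± 0.50. CLE 2 was lowest for both, and CLE 4 overlapped the littermates for Cd34 and CLE 3 for Cdh5. Zeb1, a transcription factor of mesenchymal cells, read 239, 74.1, 334 and 190.3 against 469, 441, 406 and 385 and differed by -1.21 ± 0.44, and Pparg, the regulator of fat cells and sebocytes, read 100.1, 29.6, 88.0 and 113 against 124, 121, 211 and 237 and differed by -1.16 ± 0.46. Neither overlapped, and CLE 2 was again lowest. For Pparg, CLE 1 and CLE 2 were below their background thresholds of 106 and 53.2 units. Cfd, a fat-cell gene described at the end, was below every littermate in CLE 2 and 3 and above every littermate in CLE 1 and 4. Without CLE 2 the differences were -0.66 for Cd34, -0.62 for Cdh5, -0.77 for Zeb1 and -0.73 for Pparg. Cd82, a tetraspanin of many cell types, read 562, 1215, 3139.8 and 689 against 2518, 2677, 2529 and 2264 and differed by -1.18 ± 0.43. For Cd82, CLE 3 was higher than every littermate while CLE 1, 2 and 4 were well below the lowest of them.

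**Figure D4:**
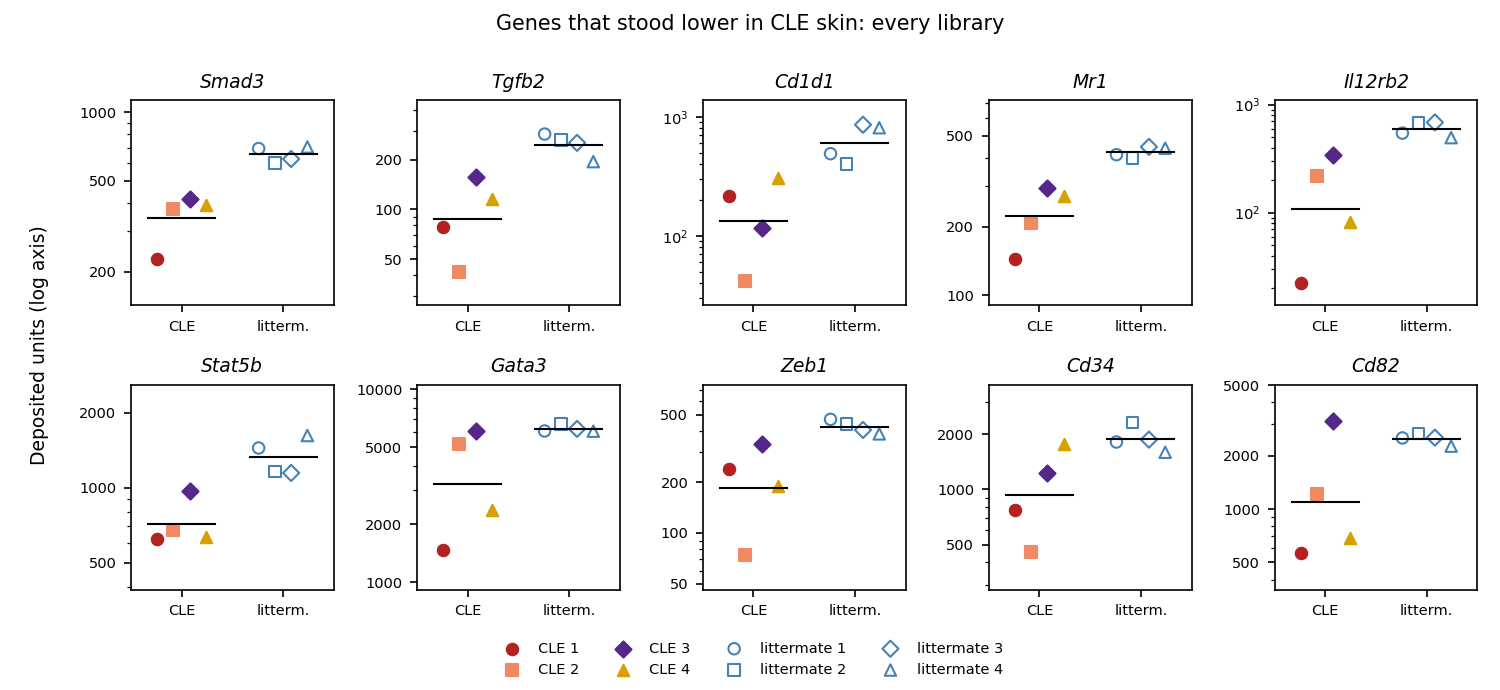
Values of 10 genes that stood lower in CLE, in deposited units on log axes, with CLE libraries as filled symbols, littermates as open symbols and the mean of the log2 values as a line. All CLE libraries lie below all littermates for Smad3, Tgfb2, Cd1d1, Mr1, Il12rb2, Stat5b, Gata3 and Zeb1, and CLE 3 stands above the littermates for Cd82.

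The tissue label rests on few epithelial genes here. Of the 30 epithelial and keratinocyte genes listed 9 were on the panel and 6 were tested. All 6 were positive with a median of 0.54, or 0.06 with median centring, and the keratins were not analysed here. The beta-defensins are antimicrobial peptides of epithelium. Defb1 read 3837, 2182, 2136 and 969 units in CLE and 848, 906, 1165 and 999.7 in littermates and differed by 1.07 ± 0.36, and Defb14 read 3203, 1809.6, 489 and 181 against 209, 142, 258 and 234 and differed by 2.04 ± 0.77. CLE 4 lay inside the littermate range for both, and the other CLE libraries above it. Cd24a, a surface protein of epithelium and immature leukocytes, differed by 0.70 ± 0.29. Of 12 Merkel cell genes 1 was tested, Ncam1, at 133, 81.5, 124 and 268 units in CLE and 109, 162, 117 and 105 in littermates, so the labelled loss of Merkel cells in littermates 3 and 4 was not checked by these data. Tlr9, labelled as deleted in all mice but littermate 1, read 156, 34.6, 40.5 and 42.9 units in CLE and 21.7, 109, 36.5 and 31.5 in littermates. It passed background in CLE 1, 3 and 4 and littermates 3 and 4, all labelled ko/ko, and not in littermate 1, the library with a wild-type copy. No source used here places the probe inside or outside the deletion.

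Across lists, the 4 CLE mice had different profiles. CLE 1 led the neutrophil and alarmin list, whose median stood 5.46 above the littermate mean, and also the interleukin-1 list at 0.95. CLE 4 led the type I interferon list at 1.77, MHC class II at 1.39 and complement at 1.47, while its interleukin-1 list stood at 0.11. CLE 2 had both interferon lists up, the gamma-induced at 1.38 and the type I at 1.13, with complement at -0.44. The same lists stood at 1.77 and 0.79 in CLE 1 and at 1.80 and 1.77 in CLE 4. In CLE 3 the interferon lists stood at -0.23 and -0.26. Over all tested genes the median departure was 0.59, 0.44, -0.03 and 0.28 in CLE 1 to 4. Of the 91 genes higher at an unadjusted p under 0.05, CLE 1 was the highest CLE library in 61 and CLE 3 the lowest in 74. Over all 451 tested genes these counts were 183 and 213. Of 260 genes above background in all 8 libraries, 243 had a wider spread in CLE, with a median SD of 0.59 on the log2 scale against 0.20 in littermates.

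**Figure D5:**
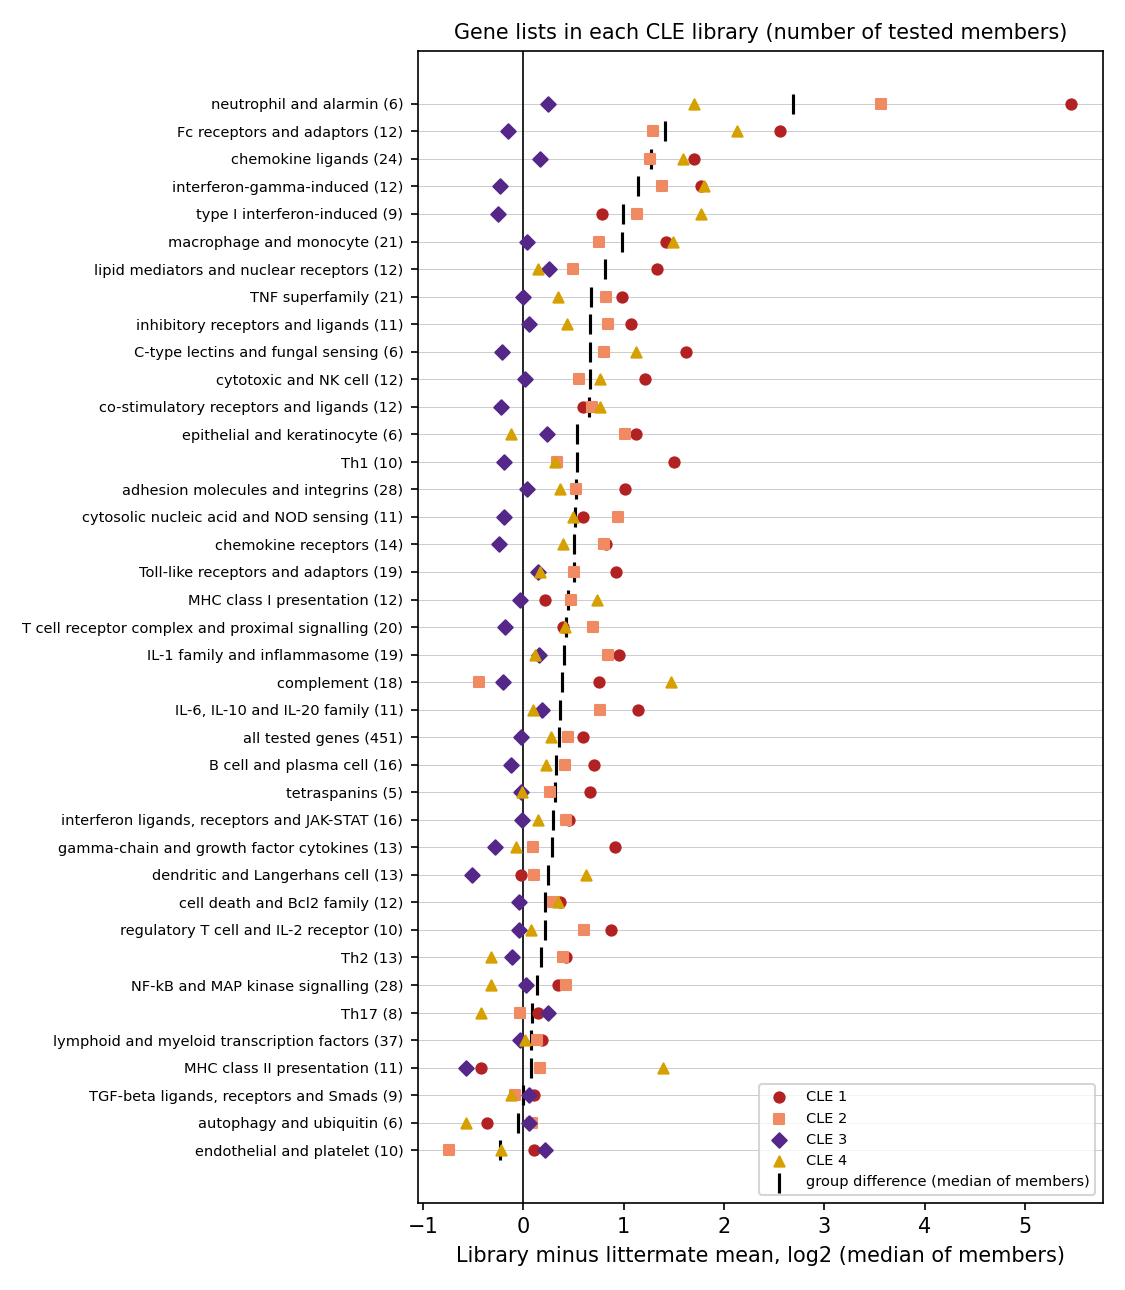
Gene lists with at least 5 tested members (number in brackets), with the median over members of each CLE library's departure from the littermate mean, on the log2 scale. CLE 1 (circles) reaches 5.46 for neutrophil and alarmin genes, CLE 4 (triangles) is highest for MHC class II at 1.39 and complement at 1.47, where CLE 1 stands at 0.76, and CLE 3 (diamonds) is lowest for MHC class II at -0.57 and for dendritic and Langerhans cell genes at -0.51.

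The precision of the comparison differed between genes. The median half-width of the 95% interval of a difference was 0.87 on the log2 scale, and for 12 genes both ends of the interval lay within 0.5 of 0. The intervals of the proteasome subunits Psmb5 and Psmc2 were among the narrowest of those that contained 0. Psmb5 read 2119, 2207, 1838 and 1805 units in CLE and 1934, 1824, 1782 and 1774 in littermates, with an interval of -0.21 to 0.45. Psmc2 read 2558, 3224, 3321 and 2453 against 3118, 2644, 3102 and 3075, with an interval of -0.40 to 0.29. The reference genes of the panel were less even than these, from Sdha, a mitochondrial enzyme, at 495, 553, 2701 and 867 units in CLE and 2494, 1694, 1906 and 2129 in littermates, to Tubb5, a tubulin, at 2179.7, 2898, 909 and 2253 and 753, 909.8, 1106 and 1055. CLE 3 was the one CLE library above the littermates for Sdha and within them for Tubb5.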

How the data were processed

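Skin RNA was extracted with Qiagen RNeasy mini kits and hybridised to a NanoString mouse immunology panel, per the labels' protocols. Each deposited gene signal is a whole barcode count times a factor that is the same for all genes of a lane, as the spacing of the values shows, and no source used here says how the authors set it. Deposited control rows are raw counts. Whole counts were recovered from the steps, with 100% of gene values within 0.02 units of a whole multiple.

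Genes whose count passed background, the mean plus 2 SD of the negative controls, in 4 or more of the 12 libraries were tested. Of 561 probes 549 matched a RefSeq symbol. Differences were fitted on log2(value + 1), which understates those of low genes, with limma 3.58.1 (R 4.3.3) and a variance trend, using all 12 libraries so that the 3 groups share 1 estimate of spread. Adjusted p-values are Benjamini-Hochberg over 451 genes, with a threshold of 0.05, and each gene's p measures the spread between mice. On data simulated for CLE against littermates with 451 genes, the fit recovered 39.4% of 109 genes with a log2 change of 1. It recovered 95.6% of 91 genes with a change of 2, and made 4 false calls. The simulation gave the groups the same dispersion and set no library apart. In the data, genes above background in all 8 libraries had a median log2 SD of 0.59 in CLE and 0.20 in littermates. The simulated shares are therefore not the power of this comparison. EdgeR 4.0.16 and DESeq2 1.42.0 on recovered counts, other scalings, filters, moderation, genotype subsets and leaving out libraries were alternatives.

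Members and gene lists were chosen with earlier results of these data known. Named genes are Tlr9; the 30 with the smallest p; of the genes without overlap the 15 most positive and 15 most negative; those called by edgeR with TMM or above background in all of 1 group and none of the other; up to 4 per list by p; the 10 most abundant per group; the 10 with the widest CLE spread relative to littermates; the 10 narrowest intervals around 0; and reference genes. Genes outside this rule are said to be picked after their values were seen. Not every gene that the rule names is described, and some are not reported here. Python 3.11.15, pandas 2.3.3, numpy 2.4.6, scipy 1.17.1 and matplotlib 3.10.9 were used.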

Additional observations from a re-analysis of the deposited data

Results flagged for a closer look

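For the 81 genes whose differences are given, a single library was set against the other 3 of its group by Dixon's ratio of the gap to the range, at its 95% critical value for 4 samples. This gave 13 cases in 162 groups, and chance gives about 1 in 20. In 6 of them CLE 3 was far below the other CLE libraries, at 131 units for Cxcl10, 296 for Ifi35, 43.3 for Ccl7, 360.4 for Ccl8, 36.3 for Pdcd1lg2 and 16.8 for Gzmb. CLE 1 stood apart with a low Smad3 at 228 units and a high Tlr9 at 156 units. Among littermates, littermate 2 stood apart with high Myd88 at 441 and Pdgfb at 873 units and a low Psmc2 at 2644 units. Littermate 3 had a low Tgfb3 at 229 units and a high Ctss at 414 units. CLE 1 and littermate 2 had the highest lane factors, 5.56 and 4.04, and the part of the factors in these values was not tested.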

How the results depend on the processing

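Many of the 81 genes were named for a small p or for no overlap in these same libraries, which favours a stable sign. Of 81 gene differences, 78 kept their sign in all of the 29 alternatives in which the gene was tested. The exceptions were Tlr9 (-0.039 with median centring, -0.17 with quantile normalization, and -0.056 to 0.90 over the fits that leave out 1 library), Psmb5 (-0.35 with median centring, -0.28 with quantile normalization, -0.15 in edgeR with TMM and -0.18 in edgeR with DESeq2 size factors and in DESeq2) and Psmc2 (-0.13 to 0.018 over the fits that leave out 1 library). The count of genes called was 0 in the other alternatives and 2 with median centring, 9 with quantile normalization, 1 after background subtraction, 108 with array weights, 1 in edgeR with TMM, 17 in edgeR with DESeq2 size factors, 25 in edgeR with the deposited lane factors (chosen after seeing the data), 94 in DESeq2 and 134 at an adjusted p of 0.2. Leaving out each library gave 0 to 138 genes, the highest without CLE 3. For the 120 genes at an unadjusted p under 0.05 the range was 73 without CLE 1 to 196 without CLE 3, with 77 without littermate 4. Beyond these, the count was 59 among genes above background in all 8 libraries, 186 with array weights, 62 in TLR9 ko/ko libraries, 39 without the K14Cre+ littermates and 61 without CLE 1 and littermate 2. The 50 genes without overlap ranged from 57 to 189 when 1 library was left out (189 without CLE 3, 95 without littermate 2), and were 27 among genes above background in all 8 libraries, 88 without the K14Cre+ littermates and 104 without CLE 1 and littermate 2. Fewer libraries make overlap less likely by construction. The median difference of 0.35 became -0.12 with median centring and -0.11 with quantile normalization. Of 40 list medians 23 changed sign in at least 1 alternative, and those of interferon-gamma-induced genes (0.67 to 1.59), type I interferon-induced genes (0.51 to 1.37), chemokine ligands (0.79 to 1.52), Fc receptors (0.94 to 2.00), macrophage genes (0.51 to 1.34) and neutrophil and alarmin genes (1.76 to 4.98) did not. The 4.98 is the value of S100a8 alone, the only member of its list above background in all 8 libraries. No paired analysis was possible because the replicate numbers follow the order of the samples and pair no mice. The title number as a random block (correlation 0.213) gave 0 called genes and 116 at an unadjusted p under 0.05. Depth limits the low genes most in littermate 2, where 295 probes passed background, and in CLE 1, where 374 did.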

Other observations

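Sensors and checkpoints gave further values. Of 11 tested genes of cytosolic nucleic acid and NOD sensing 10 were positive with a median of 0.51, and of 11 inhibitory receptors and ligands 10 were positive with a median of 0.67. With median centring the 2 medians were 0.04 and 0.19. Sting1, the adaptor that passes on cytosolic DNA signals, read 378, 207, 69.8 and 261 units in CLE and 54.3, 44.5, 69.9 and 52.0 in littermates and differed by 1.82 ± 0.50. CLE 3 lay within the littermates and the other CLE libraries above them. Tbk1, the kinase that Sting1 engages, read 684, 541, 461 and 411 against 331, 348, 387 and 303 units and differed by 0.59 ± 0.20, with no overlap between the groups. Pdcd1lg2, the inhibitory ligand PD-L2, read 106, 91.3, 36.3 and 91.7 against 15.8, 40.4, 16.2 and 10.9 units and differed by 1.98 ± 0.45, above background in 3 of 4 CLE libraries and 0 of 4 littermate libraries. CLE 3 was below littermate 2 for this gene, and the difference was 1.17 with low values raised to the background threshold. The 19 Toll-like receptor and adaptor genes had a median of 0.50, or 0.03 with median centring. Myd88, their shared adaptor, read 701, 634, 415 and 386 against 283, 441, 276 and 277 units and differed by 0.72 ± 0.27. Littermate 2 stood above CLE 3 and 4 for Myd88. In the TNF superfamily 18 of 21 were positive with a median of 0.68, or 0.20 with median centring. Among them were Tnfrsf1b, the second TNF receptor, at 1.44 ± 0.54 and Tnfrsf13b, the receptor TACI of B cells, at 1.17 ± 0.42. Tnfrsf13b was not above background in every library, and its difference ran from 0.50 to 2.34 over the alternatives.

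Of 28 adhesion genes 20 were positive, a share near the 72.5% of all tested genes, and the median of 0.52 was 0.05 with median centring. Itgb2, the shared chain of the leukocyte integrins, read 1435, 395, 147 and 596 units in CLE and 164, 154, 149 and 109 in littermates and differed by 1.72 ± 0.60. Cxcr4, the receptor for CXCL12, read 1034, 247, 159 and 370.1 against 90.8, 166, 101 and 84.7 units and differed by 1.71 ± 0.56. CLE 3 lay within the littermates for both. Nt5e, the enzyme CD73 that makes adenosine, read 373, 294, 795 and 527 against 780.1, 881, 811 and 723 units and differed by -0.78 ± 0.27, with CLE 3 among the littermates and the other CLE libraries below.

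Some genes set 1 CLE mouse apart, and of these Cfd, Il22ra2, Thy1 and C1qb were picked after their values were seen. Cfd, the fat-cell protease adipsin, read 5605, 229.6, 2139.8 and 7563 units in CLE and 3373, 3239, 5295 and 4893 in littermates, and Cd36, a fatty acid transporter, read 695, 123, 3740.4 and 1056 against 1704, 1674, 2119 and 1714. CLE 2 was far below all other libraries for both, and it also had the lowest Pparg. Il22ra2, the soluble decoy receptor of interleukin-22, read 117, 46.9, 1577 and 45.2 against 164, 174, 183 and 132 units, and CLE 3 was the one library far above the rest. Thy1, a marker of T cells, fibroblasts and nerves, read 851, 1264, 203 and 1854 against 496, 602, 782 and 726 units, and CLE 3 was the lowest library for it while the other CLE libraries were above all littermates. The complement chain C1qb read 1223, 607, 528 and 3719 against 564, 339.6, 787 and 629 units, with CLE 4 highest and CLE 2 and 3 within the littermates.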
